A study of Mus musculus with 3 samples.

Results

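The cell cycle enters S phase when D-type cyclins activate the kinases CDK4 and CDK6, and the expression of 10 genes at that gate was measured in mouse heart tubes with and without Sox7. The genes were chosen by symbol and are the D-type cyclins Ccnd1, Ccnd2 and Ccnd3, the kinases Cdk4 and Cdk6, the CDK inhibitors Cdkn1a, Cdkn1b, Cdkn2c and Cdkn2d, and the pocket protein gene Rb1. They are 10 of the 23337 genes in the count files. RNA was sequenced from whole heart tubes at embryonic day 9.5, in 2 libraries labelled Sox7-null (SOX7 -/-), here null tube 1 and null tube 2, and 1 labelled wild type. The labels give neither strain nor the design of the null allele, nor whether a sample is 1 tube or a pool. Sox7 encodes a SoxF transcription factor of endothelium and endocardium, and the series looks for genes whose expression in the developing heart changes without it.

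In G1, mitogen signals raise D-type cyclins, which bind CDK4 or CDK6 and start the phosphorylation of RB1. Phosphorylated RB1 releases E2F factors, which turn on genes for DNA synthesis and the E-type cyclins. Inhibitors of the CIP/KIP family (p21 from Cdkn1a, p27 from Cdkn1b, p57 from Cdkn1c) bind cyclin-CDK complexes, whereas INK4 inhibitors (p18 from Cdkn2c, p19 from Cdkn2d) bind CDK4 and CDK6 themselves. Heart tube myocardium grows by division, and its trabecular cells divide less than those of the outer wall.

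Promoter letters are shown for the member that rose most and for the kinase that fell. The sequences are those of RefSeq for build GRCm38.p6, where 7 of the 10 genes have an entry. Ccnd1, Ccnd2 and Rb1 have none. Each sequence is the stretch just before a transcript start, 5′ to 3′ on the gene's strand, which is the plus strand for all 3. Capitals mark matches to the motifs named below.
Cdkn1a, upstream start, chr17:29090729-29090978: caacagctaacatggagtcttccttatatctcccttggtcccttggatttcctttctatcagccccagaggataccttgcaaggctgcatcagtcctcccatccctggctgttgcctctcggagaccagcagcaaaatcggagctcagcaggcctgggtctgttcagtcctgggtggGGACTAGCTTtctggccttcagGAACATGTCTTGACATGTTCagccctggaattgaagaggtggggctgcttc
Cdkn1a, downstream start, chr17:29093519-29093768: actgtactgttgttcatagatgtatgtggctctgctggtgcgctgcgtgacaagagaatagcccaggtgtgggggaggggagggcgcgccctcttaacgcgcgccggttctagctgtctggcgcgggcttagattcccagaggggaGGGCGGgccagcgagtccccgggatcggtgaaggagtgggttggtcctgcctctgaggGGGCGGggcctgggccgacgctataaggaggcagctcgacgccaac
Cdk4, chr10:127063285-127063533: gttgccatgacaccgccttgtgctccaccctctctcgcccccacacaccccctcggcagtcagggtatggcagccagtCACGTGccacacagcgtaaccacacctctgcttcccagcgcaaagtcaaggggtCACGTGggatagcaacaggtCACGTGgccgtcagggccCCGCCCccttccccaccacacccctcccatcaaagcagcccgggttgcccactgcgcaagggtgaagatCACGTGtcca

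The sequence before the upstream Cdkn1a start holds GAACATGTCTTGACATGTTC, at positions -51 to -32 counted from the start, which is a pair of p53 half-sites end to end with 1 mismatch allowed over the 20 letters. Such a pair occurs in 25 of 32851 RefSeq promoter windows of 250 bases (0.0761%). A second stretch of capitals there, GGACTAGCTT, matches a single p53 half-site, which 7.13% of windows hold. The downstream start lies 2790 bases further on, and its window has 2 copies of the Sp1 box GGGCGG (32.7% of windows). The Cdk4 sequence holds 4 E-boxes, CACGTG, the letters that MYC-MAX dimers are known to bind, besides 1 Sp1 box. An E-box occurs in 6.02% of windows. At least 4, a cutoff set by the Cdk4 sequence itself, occur in 7 of 32851 (0.0213%). Each E-box also contains ACGTG, the core of the hypoxia response element, which 16.6% of windows hold.

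The other motifs were searched on both strands in the 10 windows of the 7 genes. The SOX core AACAAT was found once, before Cdk6, against 9.42% of all windows. GTAAACA, bound by FOXO factors, was found before 1 of the 2 Ccnd3 starts (3.17% of windows). The E2F letters TTTCCCGC, TTTCGCGC, TTTGCCGC and TTTGGCGC (1.86% of windows), the ATF4 composite TGATGNAA (3.45%) and the AP-1 site TGANTCA (6.75%) were found in 0 of the 10. Sp1 boxes were found in 7 of the 10 windows, those of Cdkn1b and Cdkn2d and 1 of the 2 Cdkn2c windows among them. A p53 half-site was also found before Cdkn2d, and an E-box before Cdk6, so each of these motifs was in 2 of the 10 windows. ACGTG was in 3 of the 10, those of Cdk4, Cdk6 and 1 of the 2 Cdkn2c windows. In GENCODE M21, exons of the gene itself reach the far end of both Cdkn2c windows. Such exons start 151 bases into the Cdkn2d window. Matches in these windows may therefore lie in exons. The p53 motif was added after the Cdkn1a letters had been seen, and a match of letters is a description, not a site shown to be bound.

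Reads assigned to genes numbered 13139823 to 13789388 per library. The wild-type library stood apart in its reads without a unique position, at 22.3% against 10.4% and 11.6% in the null libraries. Sox7 had 2 reads in null tube 1, 7 in null tube 2 and 222 in the wild type, which fits the labels. Cardiomyocyte markers summed to 33100, 31900 and 25300 CPM (reads relative to library size, scaled by TMM, a method that equalises the bulk of genes between libraries) and all 10 were present, 5 of them higher in the null libraries. The epicardial and proepicardial list was also higher in sum (1560 and 1350 against 440 CPM over 8 genes, of which 4 rose). Krt19 alone stood at 792 and 669 against 81 CPM (log2 fold change 3.17), and Krt8 (1.49), Krt18 (1.36) and Wt1 (0.97) rose too. Tbx18 (-0.16), Tcf21 (-0.43), Upk3b (0.19) and Aldh1a2 (1.38) did not pass. Endothelial and endocardial markers summed to 513, 487 and 424 CPM over 8 genes, of which 2 rose and 1 fell. Pecam1 (log2 fold change 1.07) and Tie1 (0.83) were higher and Tek (-0.91) was lower. Macrophage and leukocyte markers summed to 36.4, 16.0 and 16.7 CPM, with 2 of 5 tested higher and 1 lower. The retina markers Crx, Six3 and Rcvrn, which were examined because a protocol text names retinal cultures, were at 0 in every library. Megakaryocyte and platelet markers were higher in both null libraries (369 and 224 against 59.7 CPM summed over 7 genes, of which 7 rose). Liver and foregut endoderm markers were lower (2.52 and 2.68 against 51.5 CPM over 9 genes, of which 8 fell). Primitive erythroid markers were low in null tube 1 alone, at 4550 CPM over 8 genes, against 14500 in null tube 2 and 14000 in the wild type.

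Of the 10 genes, 3 rose (Cdkn1a, Cdkn1b and Rb1), 2 fell (Ccnd1 and Cdk4) and 5 did not pass the test. All 10 had enough reads to be tested. The inhibitors of the CIP/KIP family carried the largest differences, Cdkn1a at 4.30 times and Cdkn1b at 2.28 times the wild-type level. Ccnd1 and Cdk4 stood at 0.658 and 0.674 times that level. The test was edgeR's quasi-likelihood test over 13334 genes with Benjamini-Hochberg adjustment, and a gene passed at an adjusted p under 0.05. Of all tested genes 21.6% passed, 11.3% higher and 10.2% lower, so a passing gene is common in this comparison. The median log2 fold change was 0.03 over the 10 genes and 0.01 over all tested genes.

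With 2 libraries against 1 the test has 1 residual degree of freedom and assumes that the lone wild-type library varies like the null libraries. Its p-values measure only the spread between these samples, which may be technical. When no filter on low counts was used, 0 of 17242 genes passed, the 5 called genes included, although 4113 genes and the same 5 had an unadjusted edgeR p under 0.05. DESeq2 called 1649 genes and limma-voom 2549. In bulk RNA, fewer cells of a type and less RNA per cell cannot be told apart.

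**Figure D1:**
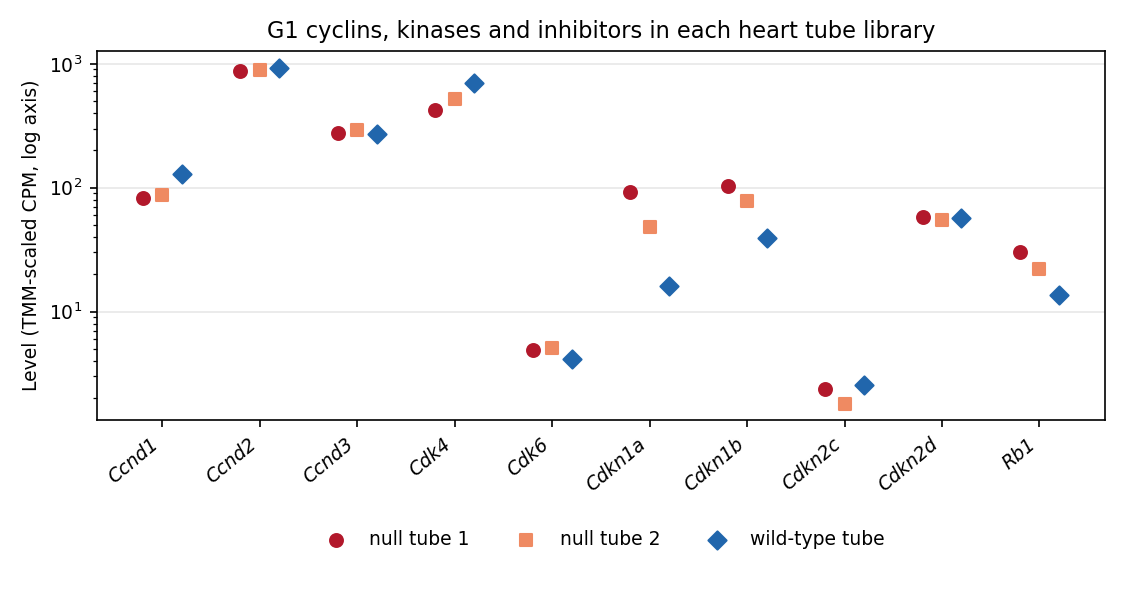
Level of each of the 10 genes in each library, in TMM-scaled CPM on a log axis, with 1 point per library. Cdkn1a, Cdkn1b and Rb1 lie higher in both null libraries than in the wild type, Ccnd1 and Cdk4 lie lower, and the points of Ccnd2, Ccnd3 and Cdkn2d nearly coincide.

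Among the D-type cyclins, the regulatory subunits of CDK4 and CDK6, Ccnd1 was the one that fell. It had 1118 reads in null tube 1, 1196 in null tube 2 and 1711 in the wild type, or 82.9, 86.8 and 129 CPM. Both null libraries were low and close to each other. The log2 fold change was -0.60 ± 0.18 (SE; adjusted p = 0.0328, edgeR). With DESeq2 the value was -0.60 and Ccnd1 did not pass (adjusted p = 0.0707, DESeq2).

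Ccnd2, the D-type cyclin with the most reads here, had 11689, 12173 and 12362 reads in the 3 tubes, nulls first. These are 867, 883 and 932 CPM, and the libraries differed little. Its log2 fold change was -0.09 ± 0.14 (SE; adjusted p = 0.694, edgeR), with a 95% interval of -0.40 to 0.22. Ccnd3, the D-type cyclin that is also prominent in blood cell precursors, had 3702, 4056 and 3577 reads, or 275, 294 and 270 CPM. Its log2 fold change was 0.08 ± 0.17 (SE; adjusted p = 0.784, edgeR), with a 95% interval of -0.28 to 0.44. For neither gene does the interval reach a difference of 1 on the log2 scale. The values moved to -0.29 for Ccnd2 and -0.02 for Ccnd3 when a trend on transcript length and GC content was removed, and neither passed then. Exons on the opposite strand overlap 21.9% of the exon length of Ccnd1 (LTO1, counted as Oraov1) and 14.8% of that of Ccnd3 (Bysl). Oraov1 had 110, 118 and 106 reads (log2 fold change 0.06) and Bysl 488, 621 and 763 (-0.50), and neither passed. The antisense gene 9330179D12Rik, which overlaps Ccnd2 without shared exon bases, had 5, 4 and 7 reads and was not tested.

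Within the D-type cyclin reads of a library, Ccnd1 made up 6.77% in null tube 1 (95% Wilson interval 6.40 to 7.17), 6.86% in null tube 2 (6.50 to 7.25) and 9.69% in the wild type (9.27 to 10.1). The null intervals overlap each other and lie below that of the wild type. The share of Ccnd3 was 22.4%, 23.3% and 20.3% in the same order, and that of Ccnd2 was 70.8%, 69.9% and 70.0%. These shares do not depend on how libraries are scaled, and the intervals cover counting error only. Per length of annotated exon, the shares of Ccnd2 and Ccnd3 came closer, at 49.0% and 38.9% in the wild type, with Ccnd1 at 12.2%.

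Cdk4, the catalytic partner of these cyclins, was the most abundant of the 10 genes per length and fell. It had 5761 reads in null tube 1, 7110 in null tube 2 and 9276 in the wild type, or 427, 516 and 700 CPM. Both null libraries were below the wild type, null tube 1 further. The log2 fold change was -0.57 ± 0.16 (SE; adjusted p = 0.0264, edgeR). Cdk4 did not pass with DESeq2 (-0.56, adjusted p = 0.0589, DESeq2) or with the length and GC trend removed (-0.51, adjusted p = 0.0842, edgeR). In GENCODE M21, 641 bases of Cdk4 exon (31.2% of its length) overlap Tspan31 on the opposite strand. Tspan31 had 1477, 1706 and 1852 reads and did not pass (log2 fold change -0.26 ± 0.18, adjusted p = 0.344, edgeR). Without the strand setting of the counting, reads of the shared stretch cannot be told apart.

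Cdk6, the second catalytic partner, had 66, 70 and 55 reads in the 3 tubes, nulls first. Its log2 fold change was 0.27 ± 0.38 (SE; adjusted p = 0.661, edgeR), with a wide 95% interval of -0.56 to 1.09, which includes a doubling. Of the reads of both kinases, Cdk6 held 1.13% in null tube 1 (95% Wilson interval 0.891 to 1.44), 0.975% in null tube 2 (0.772 to 1.23) and 0.589% in the wild type (0.453 to 0.766). Both null intervals lie above that of the wild type, and Cdk4 reads were fewer and Cdk6 reads slightly more. Per kilobase of exon, Cdk4 stood at 341 RPKM (CPM per kilobase of exon) and Cdk6 at 0.360 RPKM in the wild type.

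Cdkn1a, whose product p21 inhibits CDK2 complexes and binds PCNA, rose most of the 10. It had 1234 reads in null tube 1, 660 in null tube 2 and 215 in the wild type, or 91.5, 47.9 and 16.2 CPM. All 3 libraries differed, with null tube 1 highest and the wild type lowest. The log2 fold change was 2.10 ± 0.34 (SE; adjusted p = 0.00160, edgeR), and against the wild type null tube 1 alone stood at 2.50 and null tube 2 alone at 1.56. This was the 97.7th percentile of log2 fold changes over all tested genes. DESeq2 gave 2.11 with a weaker adjusted p = 0.0459.

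Cdkn1b, whose product p27 holds cells in quiescence, rose less. It had 1382, 1068 and 524 reads in the 3 tubes, nulls first, or 103, 77.5 and 39.5 CPM. Both null libraries were above the wild type. The log2 fold change was 1.19 ± 0.23 (SE; adjusted p = 0.00384, edgeR), and DESeq2 also called it (1.19, adjusted p = 0.000526, DESeq2). Of the reads of these 2 inhibitors, Cdkn1a held 47.2% in null tube 1 (95% Wilson interval 45.3 to 49.1), 38.2% in null tube 2 (35.9 to 40.5) and 29.1% in the wild type (25.9 to 32.5). The share differed between the null libraries about as much as between null tube 2 and the wild type.

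The third gene of the family, Cdkn1c, is imprinted, encodes p57 and is not one of the 10. It had far more reads than both and fell, with 16529, 18856 and 26629 reads and a log2 fold change of -0.63 ± 0.14 (SE; adjusted p = 0.00698, edgeR). Its share of the reads of all 3 CIP/KIP genes was 86.3% in null tube 1, 91.6% in null tube 2 and 97.3% in the wild type. The sum of the 3 genes was 19145, 20584 and 27368 reads. So the family's reads were lower in the null libraries although 2 of its 3 genes rose. Cdkn1c was set beside the others after its values had been seen.

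**Figure D2:**
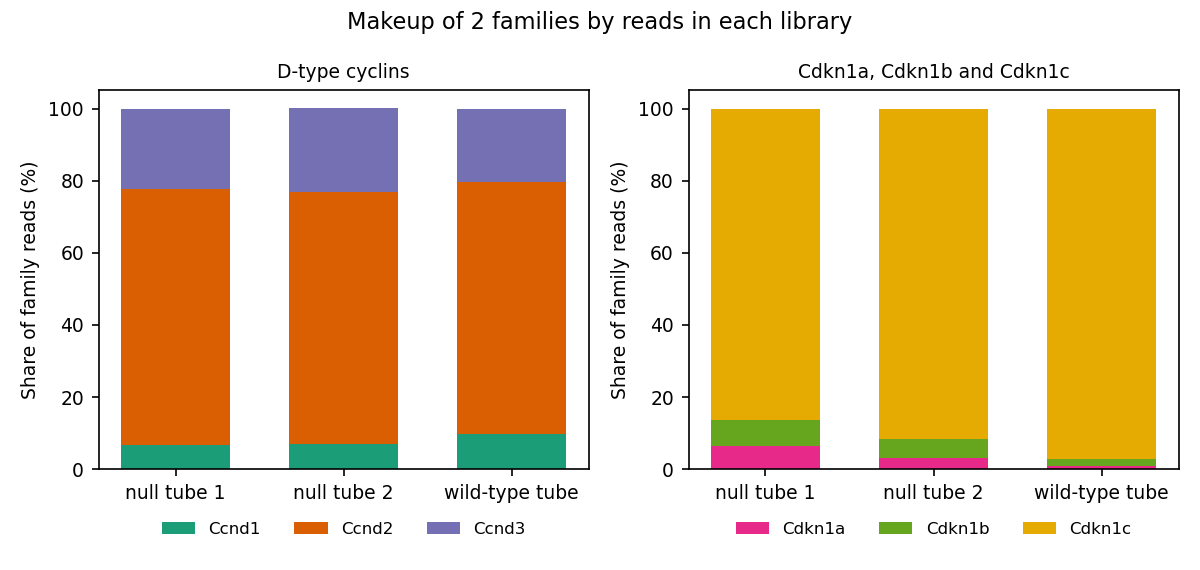
Share of family reads (percent) held by each gene in each library, for the D-type cyclins at left and the CIP/KIP inhibitors at right, with 1 bar per library. Ccnd1 takes 9.69% of the wild-type bar and under that in both null bars, and Cdkn1c takes 97.3% of the wild-type bar and less in both null bars.

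The INK4 inhibitors did not pass. Cdkn2d, which encodes p19, had 784, 759 and 756 reads in the 3 tubes, nulls first, or 58.2, 55.1 and 57.0 CPM. Its log2 fold change was -0.01 ± 0.20 (SE; adjusted p = 0.976, edgeR), with a 95% interval of -0.44 to 0.42. Its sign changed among the settings, from -0.02 to 0.16, with no call. Cdkn2c, which encodes p18, was near the lower limit of what could be tested, with 32, 25 and 34 reads. Its log2 fold change was -0.29 ± 0.51 (SE; adjusted p = 0.725, edgeR), with a wide 95% interval of -1.39 to 0.81. A moderate difference was not detectable at this depth. The interval leaves out a doubling but includes a halving. Cdkn2d held 96.1%, 96.8% and 95.7% of the reads of both.

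Rb1, the pocket protein that CDK4 and CDK6 phosphorylate, rose. It had 411 reads in null tube 1, 305 in null tube 2 and 181 in the wild type, or 30.5, 22.1 and 13.6 CPM. Both null libraries were above the wild type. The log2 fold change was 0.95 ± 0.26 (SE; adjusted p = 0.0229, edgeR), and with DESeq2 it was 0.95 and did not pass (adjusted p = 0.0718, DESeq2). Rcbtb2, on the opposite strand, overlaps 2.25% of the exon length of Rb1 and had 953, 1068 and 1426 reads and a log2 fold change of -0.54 ± 0.19 (adjusted p = 0.0587, edgeR). Lpar6, which lies inside the Rb1 gene on the opposite strand without shared exon bases, had 200, 273 and 238 reads and a log2 fold change of -0.05 ± 0.25 (adjusted p = 0.913, edgeR). Mir687, inside Rb1, had 0 reads. Rb1 and Sox7 are both on chromosome 14.

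**Figure D3:**
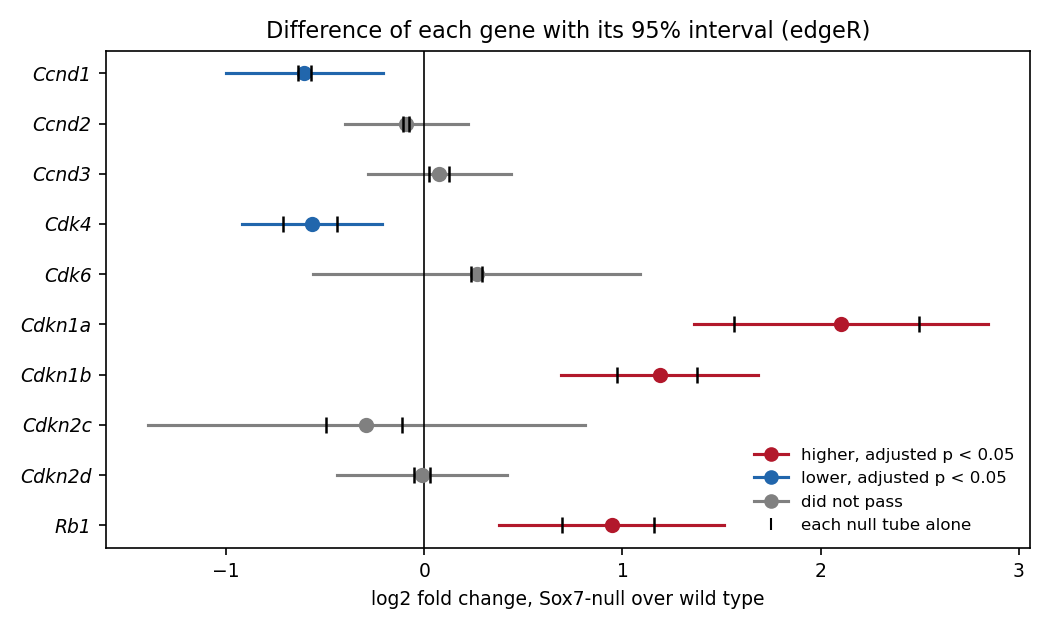
Log2 fold change of each gene, Sox7-null over wild type, with the 95% interval from edgeR as a horizontal line and the value of each null library alone against the wild type as a tick. The intervals of Cdkn1a, Cdkn1b, Rb1, Ccnd1 and Cdk4 leave out 0, and those of Cdk6 and Cdkn2c are the widest.

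The order of levels can be read only per length. In the wild type Cdk4 (341 RPKM) was followed by Ccnd2 (139), Ccnd3 (110), Cdkn2d (38.7), Ccnd1 (34.5), Cdkn1b (8.68), Cdkn1a (5.97), Rb1 (2.93), Cdkn2c (0.955) and Cdk6 (0.360). In null tube 1 Cdkn1a stood at 33.7 RPKM and Cdkn1b at 22.5, so both were above Ccnd1 (22.2), though Cdkn1b by a margin too small to rank. In null tube 2 the values were 17.6 for Cdkn1a and 17.0 for Cdkn1b, which do not separate, below Ccnd1 at 23.2. Reads of Cdkn1a per 100 reads of Cdk4, a ratio within a library, were 21.4 and 9.28 in the null tubes and 2.32 in the wild type. The ratio of Cdkn1b to Cdk4 reads was 24.0, 15.0 and 5.65, and that of Ccnd1 to Cdk4 reads was 19.4, 16.8 and 18.4. The last ratio did not separate the null libraries from the wild type, whereas both inhibitor ratios were higher in each null library.

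In all 5 called genes null tube 1 lay further from the wild type than null tube 2, as did 88.8% of the 2874 genes called in all. The 2 comparisons share the wild-type library. Platelet markers had the same order of libraries as Cdkn1a, at 369, 224 and 59.7 CPM. The epicardial list summed to 1560, 1350 and 440 CPM, with Krt19 at 792, 669 and 81 and Tbx18 at 72.7, 54.3 and 70.9. The part of platelet or epicardial cells in the Cdkn1a, Cdkn1b and Rb1 values was not tested.

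Wider lists of the pathway are read against all tested genes, of which 21.6% passed with a median log2 fold change of 0.01. Of 12 partners at the G1/S step, 1 rose, 2 fell and 9 did not pass (25% called, near the share of all genes, with a median log2 fold change of -0.41). The E-type cyclin gene Ccne1, which drives CDK2, fell, with 253, 470 and 928 reads and a log2 fold change of -1.40 ± 0.28 (SE; adjusted p = 0.00426, edgeR). The other that fell was Cdkn1c. The pocket protein gene Rbl2 rose at 1.05 ± 0.35 (SE; adjusted p = 0.0488, edgeR), but not with DESeq2, limma-voom or after removal of the length and GC trend. Ccne2 (-0.37), Ccna2 (-0.31), Cdk2 (-0.45), the CDK phosphatase gene Cdc25a (-0.62), the pocket protein gene Rbl1 (-0.53) and the CDK-activating kinase genes Cdk7 (-0.26), Ccnh (-0.45) and Mnat1 (0.47) did not pass. Of the other INK4 genes, Cdkn2b had 15, 5 and 0 reads and did not pass (adjusted p = 0.0664, edgeR). With 3 counts put in place of the wild-type 0, the mean over both null libraries was 3.24 times the wild type. Cdkn2a had 1 read in each library and was not tested. The partners' median moved to -0.08 when expression was corrected for transcript length and GC content. Under that correction 1 partner was higher, Mnat1 (0.74, adjusted p = 0.0412, edgeR). Lower were 3, namely Ccne1 (-1.32), Cdkn1c (-0.69) and Cdc25a (-0.74, adjusted p = 0.0398, edgeR). Ccne2 then stood at 0.002, Cdk7 at 0.13 and Ccnh at 0.05, so the lower median of this list depended on the setting.

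Among 16 subunits of E2F, DP and DREAM complexes 0 rose and 3 fell (18.8% called, below the 21.6% of all tested genes, with a median log2 fold change of -0.25). E2f5, a repressor E2F, fell at -0.87 ± 0.22 (SE; adjusted p = 0.0133, edgeR), the activator E2f2 at -1.43 ± 0.38 (SE; adjusted p = 0.0179, edgeR) and the histone-binding subunit Rbbp4 at -0.73 ± 0.17 (SE; adjusted p = 0.0106, edgeR). E2f1, an activator, had 227, 309 and 407 reads and did not pass (-0.64 ± 0.23, adjusted p = 0.0680, edgeR). With the length and GC trend removed E2f1 passed (-0.85) and E2f5 did not (-0.52). With DESeq2, 1 of the 16 fell, against 6.08% of all its tested genes.

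Genes for S phase entry that E2F factors are known to induce were the list with the most calls. Of 22 tested, 15 fell and 0 rose (68.2% called, median log2 fold change -0.74, with -0.96 in null tube 1 and -0.51 in null tube 2). The ribonucleotide reductase gene Rrm2, which makes DNA precursors, had 1488, 2330 and 4990 reads and a log2 fold change of -1.43 ± 0.22 (SE; adjusted p = 0.00115, edgeR). The dUTPase gene Dut fell at -1.32, the thymidylate synthase gene Tyms at -1.39 and the thymidine kinase gene Tk1 at -1.22. The replication helicase genes were split, with Mcm2 (-0.60) and Mcm4 (-0.65) lower and Mcm3 (-0.21), Mcm5 (-0.61), Mcm6 (-0.34) and Mcm7 (-0.23) not past the threshold. Once the length and GC trend was removed 8 of the 22 fell and 0 rose (median -0.64), against 4.66% of all tested genes called lower under that setting.

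Ubiquitin ligase subunits that act on G1 regulators included 5 of 15 that fell and 0 that rose (33.3% called, median log2 fold change -0.22). Skp2 and Cks1b, which target p27 for degradation, had 467, 729 and 1099 and 1414, 2017 and 3061 reads. Their log2 fold changes were -0.92 ± 0.24 (SE; adjusted p = 0.0165, edgeR) and -0.88 ± 0.21 (SE; adjusted p = 0.0102, edgeR). The core subunit genes Skp1a (-0.59) and Rbx1 (-0.65) fell too, as did Dtl (-0.65), a substrate receptor for p21 and Cdt1. The rest did not pass and went both ways. Rnf123 (0.84), Ambra1 (0.60), Ddb1 (0.42), Cul4a (0.29), Cul1 (0.08) and Fbxo31 (0.02) had positive values. Fbxw7 (-0.08), Fbxo4 (-0.22), Cul4b (-0.37) and Ubac1 (-0.50) had negative ones. After removal of the length and GC trend 1 of the 15 fell, Skp2 at -1.03, against 4.66% of all tested genes called lower. Cks1b then stood at -0.25 (adjusted p = 0.411, edgeR), Skp1a at -0.16, Rbx1 at -0.27 and Dtl at -0.58.

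Transcription factors known to act on D-type cyclin or CDK inhibitor genes had 5 of 16 higher and 0 lower (31.2% called, median log2 fold change 0.40). Ddit3, a stress factor, rose at 3.35 ± 0.44 and Atf4 at 2.20 ± 0.25 (SE; adjusted p = 0.000540 and 0.000242, edgeR). Ddit3 had 872, 404 and 61 reads, and without null tube 1 its log2 fold change was 2.67. Foxo3, a factor that induces Cdkn1b, had 221, 151 and 44 reads and rose at 2.04 ± 0.37 (SE; adjusted p = 0.00264, edgeR). The other FOXO genes of the list, Foxo1 (-0.18) and Foxo4 (0.24), did not pass. Smad3, which carries TGF-beta signals, rose at 0.88 and Fos, an AP-1 subunit, at 1.16. Myc (0.32) and Mycn (0.55), whose products bind E-boxes, did not pass, nor did Trp53, which encodes p53, at -0.06 ± 0.20 (SE; adjusted p = 0.866, edgeR).

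Of 15 p53 targets other than Cdkn1a, 4 rose and 0 fell (26.7% called, median log2 fold change 0.25). The death receptor gene Tnfrsf10b rose at 1.04, the BH3-only gene Bbc3 at 1.62, Eda2r at 0.98 and the antiproliferative gene Btg2 at 0.77. Bbc3 had 246, 113 and 57 reads, and without null tube 1 its log2 fold change was 0.93. Mdm2 (0.01), which encodes the ligase of p53, Ccng1 (-0.43), Bax (-0.28) and Phlda3 (-0.02) did not pass. With limma-voom 1 of the 15 rose, against 9.39% of all tested genes. With DESeq2 2 rose, against 8.61%, and after removal of the length and GC trend 2 rose, against 7.48%.

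Among 11 other antiproliferative genes tested, 5 rose and 0 fell (45.5% called, median log2 fold change 0.42). Gadd45a, a stress gene whose product inhibits CDK1, had 232, 158 and 30 reads and rose at 2.66 ± 0.39 (SE; adjusted p = 0.000978, edgeR). Gadd45g (1.98), Gadd45b (1.32) and Tob1 (0.83) rose as well, and Ndrg1, a gene induced by low oxygen, at 3.41 ± 0.38. Btg1 (0.42) and Gas1 (0.28) did not pass.

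**Figure D4:**
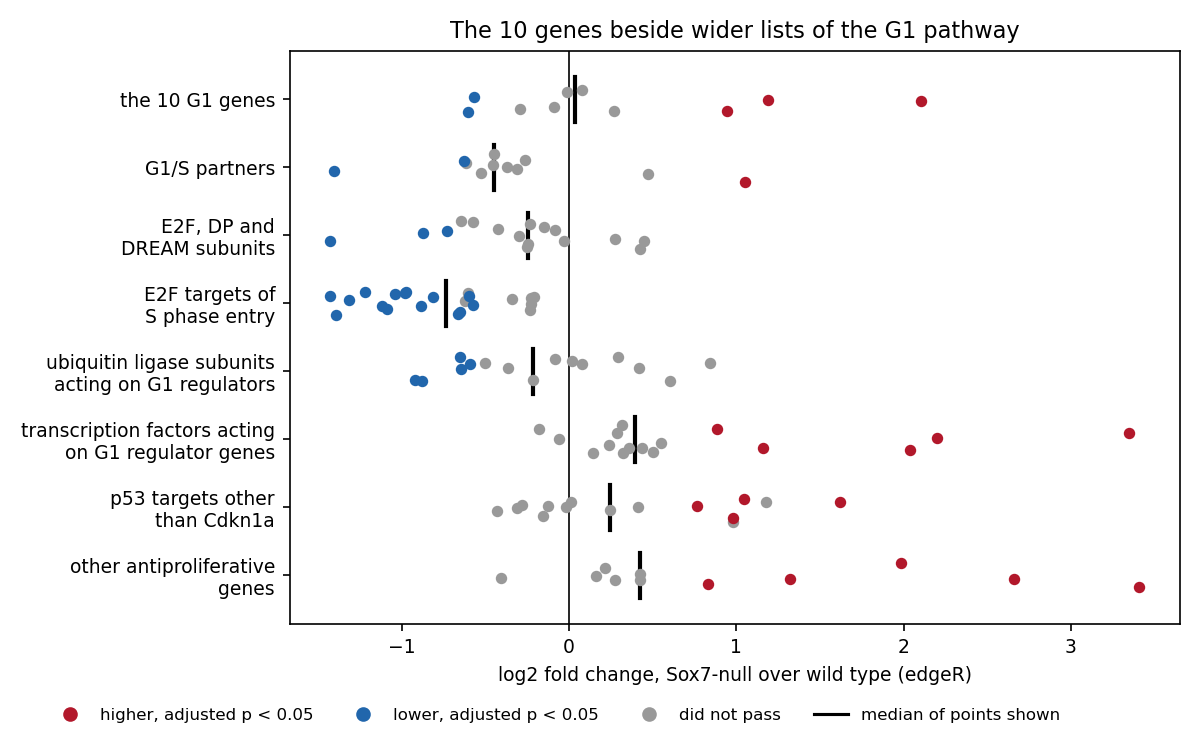
Log2 fold change of each tested gene, Sox7-null over wild type, for the 10 genes and 7 wider lists, with 1 point per gene and the median of the points as a bar. Red and blue points passed higher and lower. All 22 S phase genes lie below 0, and Cdkn2b, with 0 reads in the wild type, is left out.

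Across 8 other settings the log2 fold change of Cdkn1a ran from 2.03 to 2.19 and that of Cdkn1b from 1.17 to 1.27, and each passed in 7 of 8. Rb1 ran from 0.93 to 1.04 and passed in 6, Ccnd1 from -0.71 to -0.52 and passed in 6, and Cdk4 from -0.58 to -0.49 and passed in 5. Ccnd2, Ccnd3, Cdk6, Cdkn2c and Cdkn2d passed in 0, and DESeq2 gave no adjusted p for Cdkn2c. Of the 10, 3 rose and 2 fell with DESeq2 size factors in edgeR (11.6% of all tested genes higher and 10.9% lower), with upper quartile scaling (12.1% and 10.6%), with total counts as the scale (14.9% and 9.1%), with limma-voom (9.39% and 9.73%) and with a minimum count of 5 in the filter (9.99% and 8.76%). With DESeq2 2 rose and 0 fell (8.61% and 6.08%), and after removal of the length and GC trend 3 rose and 1 fell (7.48% and 4.66%). Without a filter on low counts the numbers were 0 and 0 (0% and 0%).

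**Figure D5:**
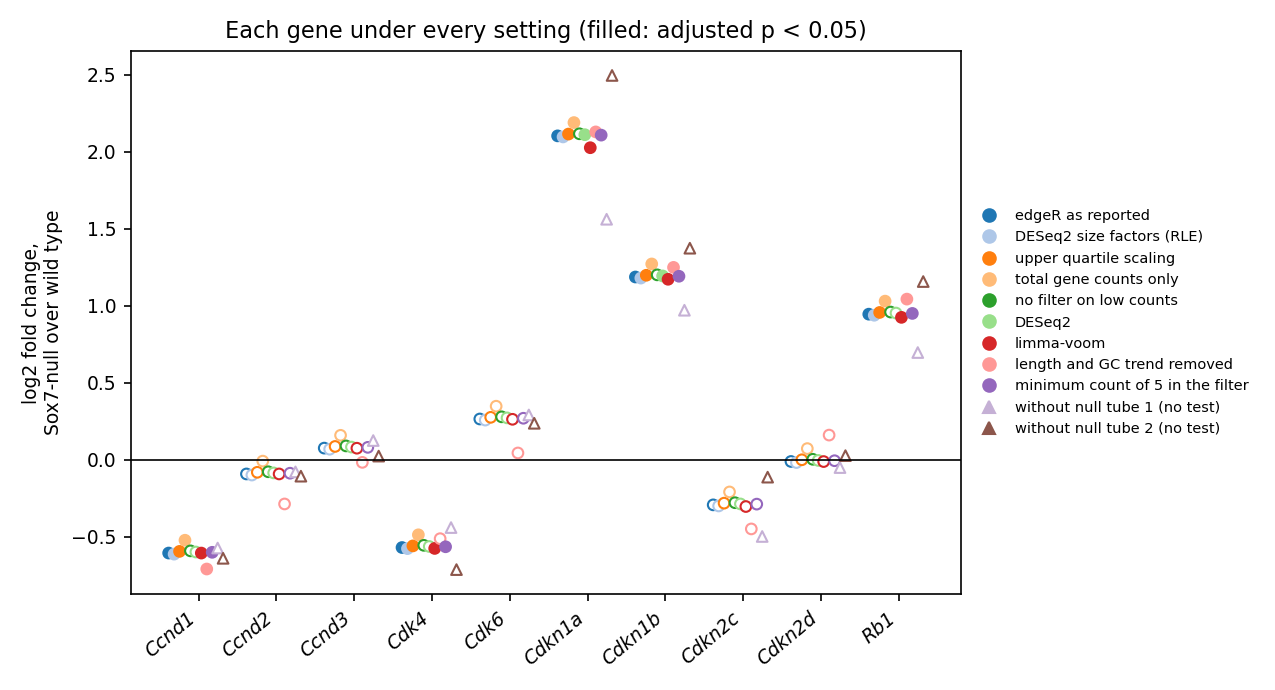
Log2 fold change of each gene, Sox7-null over wild type, under the reported test, 8 other settings and with each null library left out (triangles, no test). Filled points passed at an adjusted p under 0.05. The position of each gene moved little between settings, and the widest gap is that between the 2 triangles of Cdkn1a, at 2.50 and 1.56.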

How the data were processed

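Bulk RNA-seq of mouse heart tubes at embryonic day 9.5 gave 3 libraries, 2 Sox7-null and 1 wild type, grouped by the genotype in the labels. The authors deposited raw counts of reads for each gene symbol, in a separate file per library, and the 5 summary lines of each were not tested (no feature 8.10 to 11.7%, ambiguous 1.97 to 2.29% and not unique 10.4 to 22.3% of reads). Per the labels' protocols, total RNA libraries were made with a stranded kit. Per the submitters' processing notes, the tools were CASAVA, TopHat2, HTSeq and DESeq2 1.10.1, and the builds named there are human (hg19, GRCh37), although the symbols are those of mouse. The annotation used and the strand setting were not given in the sources used here, so no coordinates belong to the counts.

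Counts were tested with edgeR 4.0.16 in R 4.3.3 (TMM, filterByExpr with a minimum count of 10, glmQLFit, glmQLFTest with genotype as the term). This kept 13334 genes, with 11.8 prior degrees of freedom. DESeq2 1.42.0, limma 3.58.1 (voom), 3 other scalings, other filters and offsets from a smooth trend on transcript length and GC (mgcv) were alternatives, and the script was tested on simulated data. Lengths, overlaps and GC came from GENCODE M21, and 13205 tested genes had a value. A standard error is the log2 fold change divided by the square root of F. The members and lists were chosen with earlier results of these data known. Named are the 10 genes, Sox7, all G1/S partners, the 4 smallest p of each wider list, all passing members where 5 or fewer passed, and genes in the count files that overlap a member. Further names serve to describe a list.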

Additional observations from a re-analysis of the deposited data

How the results depend on the processing

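The 5 called genes kept their direction under all 8 alternatives and with either null tube left out. Lower calls among the 10 numbered 0 with DESeq2 and 1 after removal of the length and GC trend, against 2. Without a filter on low counts, 0 genes passed in either direction, in total, among the 10 and in each of the 7 wider lists, with 3.23 prior degrees of freedom against 11.8. The calls over all genes were 1649 with DESeq2 (967 higher, 682 lower) and 1618 after removal of the trend (997 higher, 621 lower), against 2874 (1508 and 1366). Of the 5 genes that did not pass, 0 passed under any alternative. Without null tube 1 and without null tube 2, the log2 fold change of Cdkn1a was 1.56 and 2.50, that of Cdkn1b 0.97 and 1.37, that of Rb1 0.70 and 1.16, that of Ccnd1 -0.57 and -0.64 and that of Cdk4 -0.44 and -0.71, with no test.

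In the wider lists, G1/S partners called higher numbered 0 with DESeq2, limma-voom or a minimum count of 5 and 2 with total counts as the scale, against 1. E2F, DP and DREAM subunits called lower numbered 1 with DESeq2, against 3. S phase genes called lower numbered 8 without the length and GC trend, against 15. Ubiquitin ligase subunits called higher numbered 1 with size factors or upper quartile scaling and 2 with total counts, against 0, and those called lower numbered 1 without the length and GC trend, against 5. The p53 targets called higher numbered 2 with DESeq2, 2 without the length and GC trend, 2 with a minimum count of 5 and 1 with limma-voom, against 4. The cause of these shifts was not tested. The minimum count of 5 was chosen after seeing the data. Total counts moved the median of all genes to 0.096, from 0.014. No paired analysis was possible because the tubes carry no shared number. A single wild-type library limits every comparison, and Cdk6 and Cdkn2c are limited by their few reads.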
